A study of Mus musculus with 8 samples.

Results

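The heat shock proteins and co-chaperones described here were 10 genes taken by symbol from a count table of 21878 gene symbols: Hspa1a, Hspa1b, Hspa8, Hsph1, Dnajb1, Bag3, Hsp90aa1, Hspb1, Hspd1 and Hspe1. Each row whose symbol equalled one of these names was used, and all 10 were found. Reads of RNA from peripheral blood were available for 4 control samples and 4 stress samples, from female wild type (WT) C57BL/6 mice aged 6 to 8 weeks. Stressed mice were held in a ventilated tube for 6 h without food and water. Control mice, which were littermates, stayed in their cage without food and water over the same time, so that both groups were fasted and differed in the restraint. The sources do not say that each sample was 1 mouse, and the p-values measure the spread between these samples.

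Heat shock proteins are chaperones that bind unfolded or newly made proteins and help them to fold, and many of them are induced when proteins lose their shape. The induction runs through heat shock factor 1 (HSF1), which chaperones hold inactive in unstressed cells and which, once released, binds heat shock elements in the promoters of its target genes. White blood cells carry abundant constitutive chaperones, above all the HSP70 protein encoded by Hspa8, while Hspa1a and Hspa1b encode the inducible HSP70. Whether restraint of the whole animal was accompanied by higher levels of these transcripts in blood was the question put to the data.

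Total counts were 31471145, 35098378, 39014775 and 31524196 in control replicates 1 to 4 and 27985919, 29655725, 25978683 and 28392759 in stress replicates 1 to 4. No total of the stress group reached that of any control sample (exact permutation, two-sided p = 0.0286, the lowest value possible with 70 assignments). Haemoglobin genes took 61.1%, 57.2%, 51.9% and 63.8% of the counts in the control samples and 66.5%, 70.4%, 75.5% and 61.2% in the stress samples (exact permutation, two-sided p = 0.0571). Levels are therefore given as CPM (counts scaled to the library size) with library sizes corrected by the trimmed mean of M values (TMM). With this scaling 1 CPM stood for 13.2 counts in stress replicate 3 and for 69.2 counts in control replicate 3, so that low genes were measured least precisely in stress replicate 3. The scaling decides the zero point. Scaled to total counts alone, all genes tested had a median log2 fold change of -0.82 instead of -0.03, and the split of genes at an adjusted p below 0.05 was 52 higher and 5811 lower instead of 1222 higher and 432 lower.

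Of the 10 genes, 9 passed the filter of at least 10 counts in at least 4 samples and were tested together with all other genes, 11718 in all. By the thresholds of the study (absolute log2 fold change above 1 and adjusted p below 0.01), 0 of 9 were called up and 0 of 9 called down in edgeR's quasi-likelihood test after Benjamini-Hochberg adjustment, where 1.69% of all genes tested were called up and 0.0171% down. DESeq2 called 1 of them up, Hspa1b, as edgeR did without stress replicate 4, and limma-voom called 0 up. At an adjusted p below 0.05 without a fold threshold, 2 of 9 were higher in the stress group, Hspa1b and Bag3, against 10.4% of all genes tested, and 0 of 9 were lower, against 3.69%. At an unadjusted p below 0.05, 4 of 9 were higher (Hspa1b, Bag3, Hspe1 and Hsp90aa1), against 18.2% of all genes tested, and 0 were lower, against 13%. In 3 of 9 the lowest stress sample exceeded the highest control sample (Hspa1b, Bag3 and Hsp90aa1), against 11.1% of all genes tested, and in 0 of 9 all stress samples lay below all control samples, against 9.88%. The count of 2 was 0 without control replicate 1, 2 or 3 or stress replicate 1, 1 without stress replicate 2 and 3 without stress replicate 4.

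**Figure D1:**
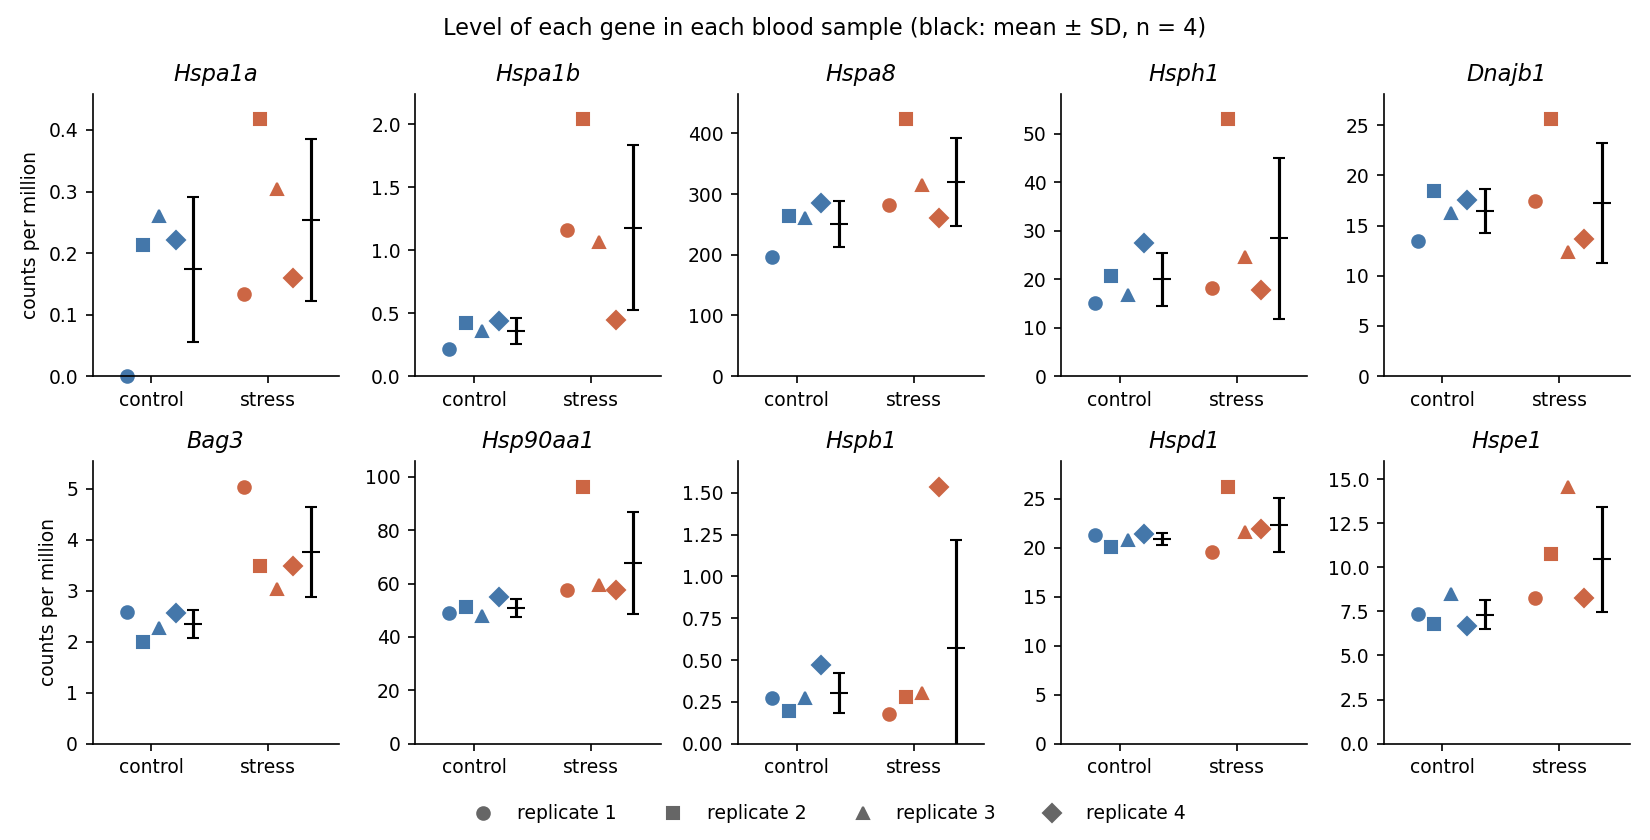
CPM of each of the 10 genes (vertical axes, from 0) in the 4 control and 4 stress samples; symbols give the replicate and black bars the mean ± SD (n = 4; the lower bar of Hspb1 in the stress group runs below the axis). The square of stress replicate 2 is the highest of 8 in Hspa1a, Hspa1b, Hspa8, Hsph1, Dnajb1, Hsp90aa1 and Hspd1, and stress replicate 4 stands alone in Hspb1.

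The genes differ widely in level, compared here as CPM per kb of the exons annotated for each gene. In the control group Hspa8 was the most abundant at 58.4 ± 8.83 CPM per kb (SD, n = 4), followed by Hsp90aa1 at 12.9 ± 0.813 and Hspd1 at 7.90 ± 0.229. Dnajb1 (5.13 ± 0.688) and Hspe1 (4.97 ± 0.566) did not differ in level beyond their spread, and Hsph1 (2.75 ± 0.758), Bag3 (0.917 ± 0.108) and Hspb1 (0.294 ± 0.116) came below them. The inducible pair was lowest, Hspa1b at 0.129 ± 0.0364 and Hspa1a at 0.0585 ± 0.0396, whose spreads overlapped. In the stress group the order of the means was the same, though more neighbours overlapped, from Hspa8 at 74.4 ± 16.8 CPM per kb to Hspa1a at 0.0855 ± 0.0446, except that the mean of Hspe1 (7.10 ± 2.02) lay above that of Dnajb1 (5.39 ± 1.86), within their spread. Hspa8 alone gave 64.3% to 69.7% of all counts of the 10 genes in each sample. Together the 10 genes held 0.0919%, 0.132%, 0.138% and 0.116% of the counts outside haemoglobin in the control samples and 0.0978%, 0.157%, 0.0937% and 0.109% in the stress samples, with stress replicate 2 the highest of the 8.

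Hspa1b encodes one of the copies of the inducible HSP70, the chaperone most often read as a sign of the heat shock response. Its raw counts were 8, 22, 25 and 14 in control replicates 1 to 4 and 26, 44, 14 and 14 in stress replicates 1 to 4. As CPM these were 0.217, 0.426, 0.361 and 0.442 in the control samples and 1.16, 2.04, 1.06 and 0.448 in the stress samples. The groups did not overlap on this scale, but stress replicate 4 and control replicate 4, each with 14 counts, were almost level, and the raw counts overlapped. The mean level was 0.362 ± 0.102 CPM in the control group and 1.18 ± 0.656 CPM in the stress group (SD, n = 4). The log2 fold change was 1.68 ± 0.46 (SE; edgeR's quasi-likelihood test, Benjamini-Hochberg adjusted p = 0.0300), and all 4 stress samples lay above the control mean. The edgeR adjusted p (Benjamini-Hochberg) exceeded 0.05 without control replicate 1 (0.0747), 2 (0.0680) or 3 (0.0745) or stress replicate 1 (0.0574) or 2 (0.0986), and was 0.00897 without stress replicate 4. Over all 16 alternatives, DESeq2 included, the adjusted p of Hspa1b (Benjamini-Hochberg) ranged from 0.00326 (DESeq2) to 0.194 (edgeR's quasi-likelihood test on total counts alone).

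Hspa1a, the other copy, had 0, 11, 18 and 7 counts in the control samples and 3, 9, 4 and 5 in the stress samples, and did not pass the filter. Its levels were 0, 0.213, 0.260 and 0.221 CPM in the control samples and 0.134, 0.418, 0.304 and 0.160 CPM in the stress samples, and the groups overlapped. The 0 counts of control replicate 1 allow a level of up to 0.0815 CPM (3 counts, counting error only). Both copies lie on the minus strand of chromosome 17 (GRCm38, GENCODE M21), Hspa1b at chr17:34956436-34959238 and Hspa1a at chr17:34969190-34972156, each as 1 exon block. Of the 50-base stretches of their annotated transcripts, 58.8% of those of Hspa1a and 62.3% of those of Hspa1b also stand in the other gene. How reads that match both were counted is not given in the sources used here, so the split between the copies is uncertain. Summed over both, the counts were 8, 33, 43 and 21 in the control samples and 29, 53, 18 and 19 in the stress samples. As CPM the sums were 0.217, 0.639, 0.622 and 0.662 in the control samples and 1.29, 2.46, 1.37 and 0.608 in the stress samples, where stress replicate 4 fell among the control samples. The summed gene had a log2 fold change of 1.39 ± 0.45 (SE) and did not pass (edgeR's quasi-likelihood test, Benjamini-Hochberg adjusted p = 0.0581). The exons of Hspa1a also share 564 bases with Gm20481 on the opposite strand, and whether the counting used strand is not given in the sources used here.

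The promoters of both copies are nearly the same as well. In the RefSeq windows of 300 bases (GRCm38.p6, 250 bases before to 50 after the start), they differ at 4 of 300 positions. The window of Hspa1b, chr17:34959189-34959488 on the minus strand, is shown because this gene had the largest fold change of the 10. Capitals mark GAANNTTC, a pair of facing units of the heat shock element, here 104 to 97 bases before the start.

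Hspa1b: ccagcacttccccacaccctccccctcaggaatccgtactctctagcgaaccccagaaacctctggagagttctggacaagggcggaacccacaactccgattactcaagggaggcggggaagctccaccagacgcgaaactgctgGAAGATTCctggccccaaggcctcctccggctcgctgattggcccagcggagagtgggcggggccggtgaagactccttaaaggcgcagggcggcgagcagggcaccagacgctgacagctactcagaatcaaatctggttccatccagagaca

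Hspa8 encodes the constitutive HSP70 and was the most abundant of the 10 genes. Its levels were 197, 263, 261 and 284 CPM in the control samples and 282, 423, 314 and 260.3 CPM in the stress samples. The groups overlapped, with stress replicates 2 and 3 above all control samples and stress replicates 1 and 4 among them. Its log2 fold change of 0.35 ± 0.18 (SE) did not pass (edgeR's quasi-likelihood test, Benjamini-Hochberg adjusted p = 0.213). Without stress replicate 2 it was 0.21. Of its 50-base stretches 39.4% also stand in transcripts of 16 other genes, most often Gm15459. The share was 50.1% for Hspb1 (most often Hsp25-ps1), 47.5% for Hsp90aa1 (Gm12346), 42.1% for Hspd1 (Hspd1-ps3) and 22.8% for Hspe1, and how such reads were counted is not given in the sources used here, so the levels of these 5 genes are less certain. In addition, 3 small nucleolar RNA genes (Snord14c, Snord14d and Snord14e) lie on its strand within annotated exons.

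Hsph1 encodes HSP110, which acts as a nucleotide exchange factor of HSP70 and helps to pull aggregates apart. Its levels were 15.1, 20.6, 16.8 and 27.5 CPM in the control samples and 18.2, 53.0, 24.6 and 17.7 CPM in the stress samples. Only stress replicate 2 lay above the control samples, at 2.90 times the median of the other stress samples. The log2 fold change was 0.51 ± 0.32 (SE; edgeR's quasi-likelihood test, Benjamini-Hochberg adjusted p = 0.305) and 0.04 without stress replicate 2. Dnajb1 encodes an HSP40 protein, a J-domain partner that hands clients to HSP70. Its levels were 13.4, 18.5, 16.3 and 17.5 CPM in the control samples and 17.4, 25.6, 12.4 and 13.7 CPM in the stress samples. Stress replicate 2 was again the highest and stress replicate 3 the lowest of the 8. Its log2 fold change was 0.08 ± 0.20 (SE; edgeR's quasi-likelihood test, Benjamini-Hochberg adjusted p = 0.836), -0.15 without stress replicate 2 and -0.01 without control replicate 1.

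Bag3 encodes a co-chaperone that releases clients from HSP70 and leads them to autophagy. Its levels were 2.58, 1.99, 2.27 and 2.55 CPM in the control samples and 5.04, 3.48, 3.04 and 3.49 CPM in the stress samples, from 40 to 157 counts a sample. The groups did not overlap, stress replicate 1 was the highest, and stress replicate 2 did not stand apart. The mean rose from 2.35 ± 0.277 to 3.76 ± 0.879 CPM (SD, n = 4). The log2 fold change was 0.69 ± 0.20 (SE; edgeR's quasi-likelihood test, Benjamini-Hochberg adjusted p = 0.0358), and the lowest stress sample (3.04 CPM) exceeded the highest control sample (2.58 CPM). The edgeR adjusted p (Benjamini-Hochberg) exceeded 0.05 without control replicate 1 (0.0579), 2 (0.117) or 3 (0.0959) or stress replicate 1 (0.0883). Over all 17 alternatives, DESeq2 included, the adjusted p of Bag3 (Benjamini-Hochberg) ranged from 0.00774 (DESeq2) to 0.880 (edgeR's quasi-likelihood test on total counts alone). None of the 50-base stretches of Bag3 stood in a transcript of another gene, which was otherwise so only for Hsph1 among the 10.

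Hsp90aa1 encodes the inducible cytosolic HSP90, which holds kinases and steroid receptors ready for activation. Its levels were 49.0, 51.4, 47.9 and 55.2 CPM in the control samples and 57.5, 96.4, 59.7 and 57.8 CPM in the stress samples. All 4 stress samples exceeded the control samples, 3 of them by little and stress replicate 2 far above. The log2 fold change of 0.42 ± 0.16 (SE) did not pass (edgeR's quasi-likelihood test, Benjamini-Hochberg adjusted p = 0.0941) and was 0.22 ± 0.11 without stress replicate 2. Hspb1, which encodes the small heat shock protein HSP25, had 10, 10, 19 and 15 counts in the control samples and 4, 6, 4 and 48 in the stress samples. As CPM these were 0.272, 0.194, 0.275 and 0.473 against 0.178, 0.278, 0.304 and 1.54. A single library, stress replicate 4, lay above the control samples, and the other 3 stress samples lay within or below their range. A log2 fold change of 1.06 ± 0.63 (SE; edgeR's quasi-likelihood test, Benjamini-Hochberg adjusted p = 0.272) became -0.25 without it. Stress replicate 4 was thus the highest for Hspb1 and the lowest stress sample for Hspa1b.

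Hspd1 and Hspe1 encode HSP60 and HSP10, the ring and the lid of the mitochondrial chaperonin. They start next to each other on opposite strands of chromosome 1, Hspd1 at chr1:55077835-55088243 (minus) and Hspe1 at chr1:55088132-55091307 (plus), with 112 exonic bases in common. Hspd1 stood at 21.3, 20.1, 20.7 and 21.4 CPM in the control samples and 19.6, 26.2, 21.6 and 21.9 CPM in the stress samples. The control samples spread by 2.90% of their mean, the least of the 10 genes, and stress replicate 2 was again the highest. Between the groups the log2 fold change was 0.10 ± 0.11 (SE; edgeR's quasi-likelihood test, Benjamini-Hochberg adjusted p = 0.568). Hspe1 stood at 7.34, 6.77, 8.499 and 6.69 CPM in the control samples and 8.25, 10.8, 14.6 and 8.26 CPM in the stress samples. Stress replicates 2 and 3 lay above the control samples and replicates 1 and 4 just under the highest of them. The log2 fold change of 0.49 ± 0.18 (SE) did not pass (edgeR's quasi-likelihood test, Benjamini-Hochberg adjusted p = 0.0763). Without stress replicate 4 it was 0.59 ± 0.18 and passed (edgeR's quasi-likelihood test, Benjamini-Hochberg adjusted p = 0.0402, against a range of 0.0402 to 0.320 over 17 alternatives). The highest sample thus differed between the neighbours, stress replicate 2 for Hspd1 and stress replicate 3 for Hspe1, and over the 8 samples their log2 CPM correlated at r = 0.43. Whether these levels differ was not tested between the genes.

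RefSeq windows were given for 8 of the 10 genes, 11 windows in all, and not for Hspa8 and Hsp90aa1. The heat shock element was searched as a pair of facing units, GAANNTTC or TTCNNGAA, each its own reverse complement, and as a run of 3 units facing in turn, each 2 bases from the next, whose forms are reverse complements of each other and contain the pairs. A pair was found in 7 of the 8 genes and in 17% of all 27025 genes with a window (15.1% of 32851 windows), and a run of 3 in 3 of the 8 genes (Hsph1, Hspd1 and Hspe1) and in 0.662% of all genes with a window (0.603% of windows). A match is a stretch of letters and no measure of binding. The windows of Hspe1 and Hsph1 are shown because they hold runs of 3 units, and that of Bag3 because this gene passed the test, with the matches in capitals. That of Hspe1 is chr1:55087898-55088197 on the plus strand, and its run of capitals, 89 to 72 bases before the start, also lies in a window of Hspd1 on the other strand. That of Hsph1 is chr5:149636287-149636586 on the minus strand, with its 3 units 37 to 49 bases after the start. That of Bag3 is chr7:128523333-128523632 on the plus strand, with its pair in the last 8 bases.
Hspe1: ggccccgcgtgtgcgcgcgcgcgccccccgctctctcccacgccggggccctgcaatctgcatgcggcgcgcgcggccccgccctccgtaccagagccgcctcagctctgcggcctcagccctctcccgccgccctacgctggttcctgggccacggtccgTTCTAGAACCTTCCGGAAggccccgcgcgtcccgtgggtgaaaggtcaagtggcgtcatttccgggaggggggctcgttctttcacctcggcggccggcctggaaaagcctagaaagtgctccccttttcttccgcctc
Hsph1: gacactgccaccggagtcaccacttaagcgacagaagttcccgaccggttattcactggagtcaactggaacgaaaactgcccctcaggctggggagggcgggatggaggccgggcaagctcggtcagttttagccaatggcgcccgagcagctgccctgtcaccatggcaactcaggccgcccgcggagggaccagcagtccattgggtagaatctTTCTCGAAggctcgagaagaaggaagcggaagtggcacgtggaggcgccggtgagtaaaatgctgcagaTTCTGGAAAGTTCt
Bag3: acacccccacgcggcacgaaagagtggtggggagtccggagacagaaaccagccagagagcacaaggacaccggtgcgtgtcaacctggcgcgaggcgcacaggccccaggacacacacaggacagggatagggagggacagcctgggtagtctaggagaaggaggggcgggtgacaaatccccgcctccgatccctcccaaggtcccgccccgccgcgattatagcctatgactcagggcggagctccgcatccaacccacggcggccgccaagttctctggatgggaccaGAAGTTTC

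Of the genes with 3 units in a window, Hspe1 had a log2 fold change of 0.49, Hsph1 of 0.51 and Hspd1 of 0.10, none of which passed. Among all other genes with 3 units in a window, 47 were tested, and 3 of these were higher and 0 lower, with a Benjamini-Hochberg adjusted p below 0.05 in edgeR's quasi-likelihood test. This is 6.38% higher and 0% lower, beside 10.4% and 3.69% of all genes tested. Their median log2 fold change was 0.02, beside -0.03 for all genes tested.

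**Figure D2:**
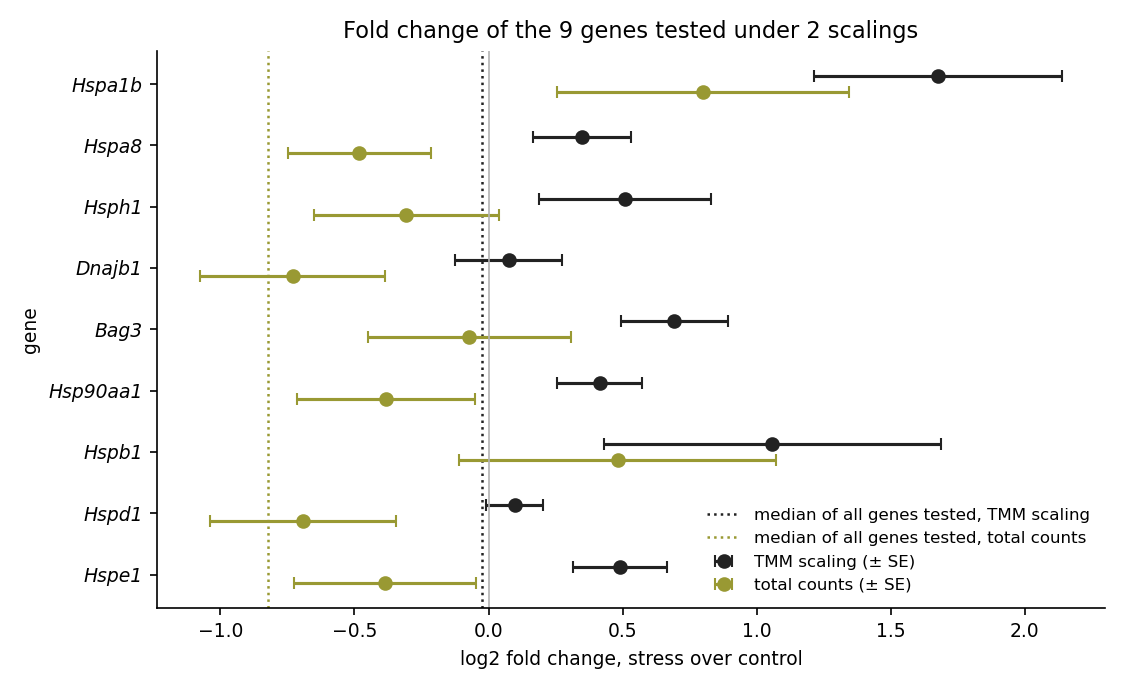
Log2 fold change (stress over control, horizontal axis) of the 9 genes tested, with bars of ± SE, under TMM scaling (black) and on total counts alone (olive); dotted lines mark the median of all genes tested under each scaling (-0.03 and -0.82). Under TMM all 9 values are above 0, and on total counts 7 of them are below 0, while all 9 lie to the right of the median of all genes.

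Under TMM all 9 log2 fold changes were above 0 (median 0.49), where 47.1% of all genes tested were above 0. On total counts the direction flipped for 7 of them, all but Hspa1b (0.80) and Hspb1 (0.48). There Bag3 had a log2 fold change of -0.07, Hsph1 of -0.31, Hsp90aa1 of -0.38, Hspe1 of -0.39, Hspa8 of -0.48, Hspd1 of -0.69 and Dnajb1 of -0.73. Relative to the shift of all genes (-0.82) each of the 9 lay on the upper side, Dnajb1 and Hspd1 by less than their SE (0.34 and 0.35). On that scaling 0 of the 9 passed in either direction. Of all 11718 genes tested, 52 were higher and 5811 lower there at an adjusted p below 0.05.

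A single library gave many of the highest values. Of the 9 genes tested, 6 had their highest level of all 8 samples in stress replicate 2, where 11.1% of all genes tested did, and 1 each in stress replicates 1 (Bag3), 3 (Hspe1) and 4 (Hspb1). Relative to the control mean, the log2 ratio of stress replicate 2 was 2.497 for Hspa1b, 1.41 for Hsph1, 0.92 for Hsp90aa1, 0.75 for Hspa8, 0.64 for Dnajb1 and 0.33 for Hspd1. The other stress samples lay between -0.17 and 0.30 for Hsph1 and between 0.18 and 0.23 for Hsp90aa1. The same library was also the highest in 9 of the 22 tested HSF1 targets outside the 10 genes and in 11 of the 22 tested HSP90 partners and relatives, in 1 of the 33 J-domain genes (Dnaja1) and in 3 of the 14 chaperonin genes, and differences between lists were not tested. Over all 123 tested list genes outside the 10, stress replicate 3 was the highest more often, in 50 against 25 for stress replicate 2, as it was for 23.7% of all genes tested. It was the highest in 10 of the 14 chaperonin genes and in 13 of the 20 endoplasmic reticulum genes. These counts describe a library that was noticed after its values were seen, and no group was formed from it.

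**Figure D3:**
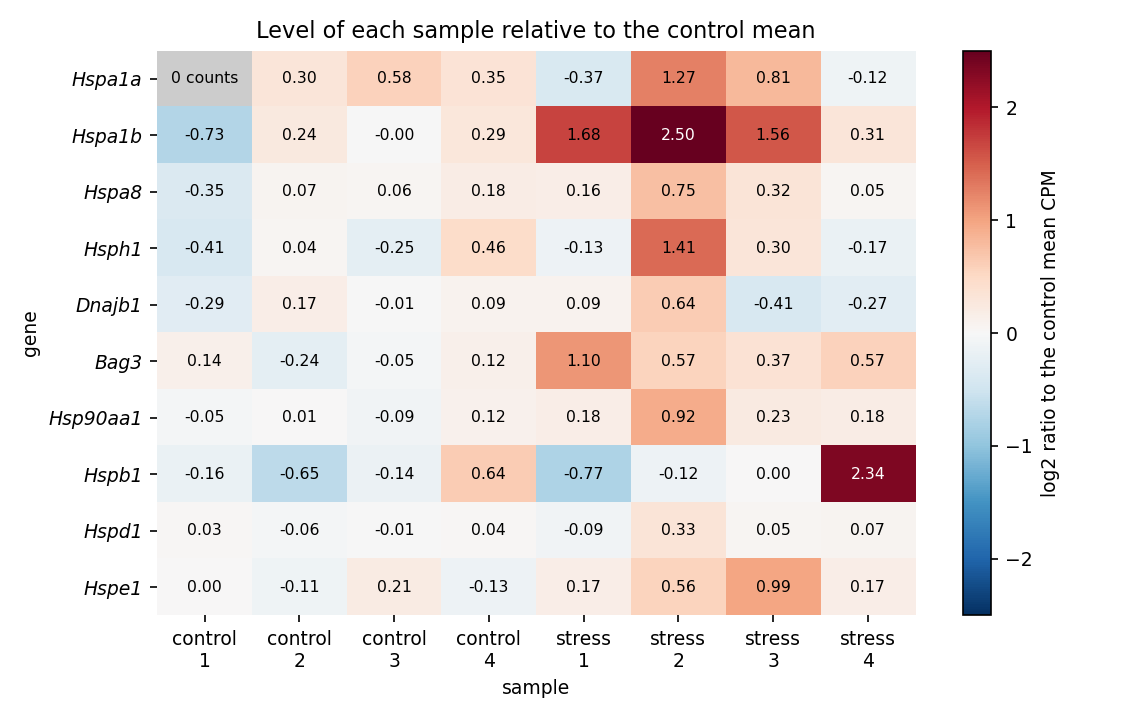
Log2 ratio of each sample's CPM to the control mean for the 10 genes (rows) in the 8 samples (columns); red is above and blue below the control mean, and grey marks 0 counts. The column of stress replicate 2 holds the highest ratios of Hspa1b (2.497), Hsph1 (1.41) and Hsp90aa1 (0.92), and Hspb1 is high in stress replicate 4 alone (2.34).

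Genes outside the 10 can be set beside these values. Dnaja1, another J-domain partner of HSP70, stood at 32.4, 46.5, 36.9 and 45.2 CPM in the control samples and 40.6, 81.9, 43.8 and 34.6 CPM in the stress samples. Stip1, which bridges HSP70 and HSP90, stood at 15.4, 24.7, 23.1 and 26.3 CPM against 19.1, 45.1, 28.0 and 24.7 CPM, and Hsp90ab1, the constitutive HSP90, at 221, 227, 230 and 249.7 CPM against 259, 361, 294 and 253 CPM. In all of these genes, chosen after their values were seen, stress replicate 2 was the highest of the 8. Over the 8 samples the log2 CPM of Atcay ranked 1st among 11717 genes in its correlation with Hsph1 (r = 0.977), Dnaja1 2nd (r = 0.962) and Mns1 3rd (r = 0.9545). Of the other members tested, Hspa8 ranked 10th (r = 0.910), Hsp90aa1 12th (r = 0.907), Hspd1 58th (r = 0.825) and Hspa1b 162nd (r = 0.745). Dnajb1 ranked 195th (r = 0.726), Hspe1 2074th (r = 0.402), Bag3 4383rd (r = 0.159) and Hspb1 6364th (r = -0.057). After each group mean was taken off, Dtx1, Mns1 and Pik3c3 ranked highest for Hsph1. Dnaja1 then ranked 10th (r = 0.958), Hsp90aa1 13th (r = 0.944) and Hspa8 24th (r = 0.922). For Hspa1b, the genes most like it over the 8 samples were Eif4g2 (r = 0.962), Sertad1 (r = 0.954) and Lrrc28 (r = 0.949). For Hspb1 they were Lmo7 (r = 0.943), Gcnt1 (r = 0.910) and Slc25a14 (r = 0.900).

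The other chaperones, partners, factors and targets were counted in fixed lists, with the 10 genes left out. Of 133 genes, 123 were tested, and 18 of these were higher and 1 lower, with a Benjamini-Hochberg adjusted p below 0.05 in edgeR's quasi-likelihood test. This is 14.6% and 0.813%, beside 10.4% and 3.69% of all genes tested, and the median log2 fold change was 0.11 beside -0.03. The count of 18 was 11, 4 and 5 without control replicate 1, 2 or 3, 11 without stress replicate 1 and 10 without stress replicate 2. The count of 1 was 3 without stress replicate 4 and 0 without any other sample but control replicate 4. On total counts 0 were higher and 49 lower.

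The transcription factors that drive the response did not pass. Hsf1 stood at 11.1, 13.1, 13.01 and 12.7 CPM in the control samples and 10.3, 13.8, 13.2 and 11.3 CPM in the stress samples, a log2 fold change of -0.04 ± 0.12 (SE; edgeR's quasi-likelihood test, Benjamini-Hochberg adjusted p = 0.846). Hsf2 had a log2 fold change of -0.18 ± 0.21 (SE; edgeR's quasi-likelihood test, Benjamini-Hochberg adjusted p = 0.594). Hsbp1, whose protein binds HSF1 and restrains it, stood at 21.8, 15.5, 16.5 and 21.9 CPM against 26.1, 32.8, 35.4 and 24.8 CPM, without overlap of the groups. Its log2 fold change was 0.65 ± 0.15 (SE; edgeR's quasi-likelihood test, Benjamini-Hochberg adjusted p = 0.0124), and it passed in 15 of 17 alternatives, all but total counts alone and the fit without control replicate 2. It was the 1 gene of the 4 tested in this list that passed.

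Of the 22 tested HSF1 targets outside the 10 genes, 5 were higher (Chac1, Ahsa1, Dnajb4, Ubb and Hspa4l) and 0 lower, and the median of their log2 fold changes was 0.25. The count was 2 without control replicate 2 or 3 and 3 without stress replicate 1 or 2. Ubb stood at 1909, 1399, 993 and 2441 CPM in the control samples and 3228, 3762, 4641 and 2345 CPM in the stress samples, the same order of the 8 samples as that of the summed red cell markers given below. Chac1, which encodes an enzyme that degrades glutathione and is induced by the unfolded protein response, was the only one called by the thresholds of the study. Whether HSF1 acted on any gene of this list was not tested. Chac1 stood at 0.272, 0.329, 0.376 and 0.536 CPM in the control samples and 1.52, 1.58, 1.67 and 1.06 CPM in the stress samples, a log2 fold change of 1.93 ± 0.35 (SE; edgeR's quasi-likelihood test, Benjamini-Hochberg adjusted p = 0.00339). Its raw counts were low and overlapped, 10, 17, 26 and 17 against 34, 34, 22 and 33. Ahsa1 encodes the activator of the HSP90 ATPase and stood at 28.2, 23.8, 24.2 and 31.9 CPM against 40.9, 48.2, 53.5 and 36.3 CPM. Its groups did not overlap (log2 fold change 0.73 ± 0.14, SE; edgeR's quasi-likelihood test, Benjamini-Hochberg adjusted p = 0.00457). Both Chac1 and Ahsa1 passed in 16 of 17 alternatives, all but total counts alone, where Ahsa1 had a log2 fold change of -0.08.

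Among 22 tested relatives and partners of HSP90 the median log2 fold change was 0.13, and 1 was lower (Cdc37l1). Cdc37l1 (-0.52 ± 0.16, SE) did not pass without any one of control replicates 1 to 3 or stress replicates 1 to 3. Fkbp5, an HSP90 co-chaperone induced by glucocorticoids, stood at 18.7, 10.99, 8.79 and 14.1 CPM in the control samples and 10.8, 33.8, 20.9 and 15.5 CPM in the stress samples. Its groups overlapped, stress replicate 2 was the highest, and it did not pass (log2 fold change 0.63 ± 0.31, SE; edgeR's quasi-likelihood test, Benjamini-Hochberg adjusted p = 0.196). Among 11 other tested HSP70 and HSP110 chaperones, 2 were higher (Hspa5 at 0.34 ± 0.10 and Hspa4l at 0.52 ± 0.16, log2 fold change ± SE) and 0 lower, with a median of 0.03. That count was 0 without control replicate 2 or 3 or stress replicate 2, and 1 without control replicate 1 or 4 or stress replicate 1 or 4.

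Among 33 other tested J-domain genes, 2 were higher (Dnajb4 at 0.58 ± 0.14 and Dnajb2 at 0.88 ± 0.27, log2 fold change ± SE) and 0 lower, and the median was -0.06, no higher than that of all genes. The count was 0 without control replicate 2 or 3, 1 without control replicate 1 or stress replicate 1, 2 or 3, and 4 without control replicate 4, while 2 were lower without stress replicate 4. Of 11 other tested partners of HSP70, Bag1 (0.99 ± 0.27) and Bag2 (1.85 ± 0.55) were higher and 0 lower, with a median of 0.01. The count of 2 was 0 without control replicate 2 or 3 or stress replicate 2 or 3 and 1 without control replicate 1 or 4 or stress replicate 1. Bag2 had only 12, 6, 19 and 3 counts in the control samples and 12, 26, 14 and 10 in the stress samples. As CPM its groups overlapped (0.326 in control replicate 1, 0.320 in stress replicate 4), and it passed in 6 of 16 alternatives. Bag1, a nucleotide exchange factor like Bag3, stood at 96.6, 66.6, 56.0 and 126 CPM in the control samples and 153, 168, 245 and 119.8 CPM in the stress samples, lowest in control replicate 3 and highest in stress replicate 3, and stress replicate 4 lay below control replicate 4. Dnajb2, at 33.8, 25.4, 16.6 and 48.4 CPM against 58.3, 53.9, 72.4 and 43.8 CPM, had its lowest and highest levels in the same samples. The red cell markers did too. Their sums ordered the stress samples as replicates 3, 2, 1 and 4 from high to low, and so did 9 of the 18 genes that were higher in all these lists (Chac1, Ahsa1, Hsbp1, Dnajb4, Fkbp8, Atf4, Cct7, Bag1 and Ubb), beside 6.63% of all genes tested, 16.9% of all 1222 higher genes and 0 of the 9 heat shock genes tested. What part red cells had in the results of any of the 18 was not tested.

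Of 14 other chaperonin and prefoldin genes 4 were higher (Vbp1, Pfdn5, Cct7 and Cct8) and 0 lower, with a median of 0.17. The count was 0 without control replicate 2 or 3, 1 without control replicate 1 and 2 without stress replicate 1, 2 or 3. Of 20 endoplasmic reticulum chaperones and unfolded protein response genes, 3 were higher (Xbp1, Atf4 and Hspa5) and 0 lower, with a median of 0.17. Xbp1 stood at 16.4, 15.2, 13.3 and 15.8 CPM in the control samples and 24.9, 19.3, 27.2 and 25.5 CPM in the stress samples, where stress replicate 2 was the lowest stress sample (log2 fold change 0.68 ± 0.12, SE; edgeR's quasi-likelihood test, Benjamini-Hochberg adjusted p = 0.00325). Of 13 other mitochondrial chaperones and proteases 0 were higher and 0 lower, and 1 was higher without stress replicate 3. At an unadjusted p below 0.05 in edgeR's test, 1 of the 13 was higher (Afg3l2), as were 18.2% of all genes tested, and 2 were lower (Trap1 and Lonp1), as were 13%, and in each of them the groups overlapped. Of 9 other small heat shock protein genes only 2 had enough counts to be tested, and neither passed.

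**Figure D4:**
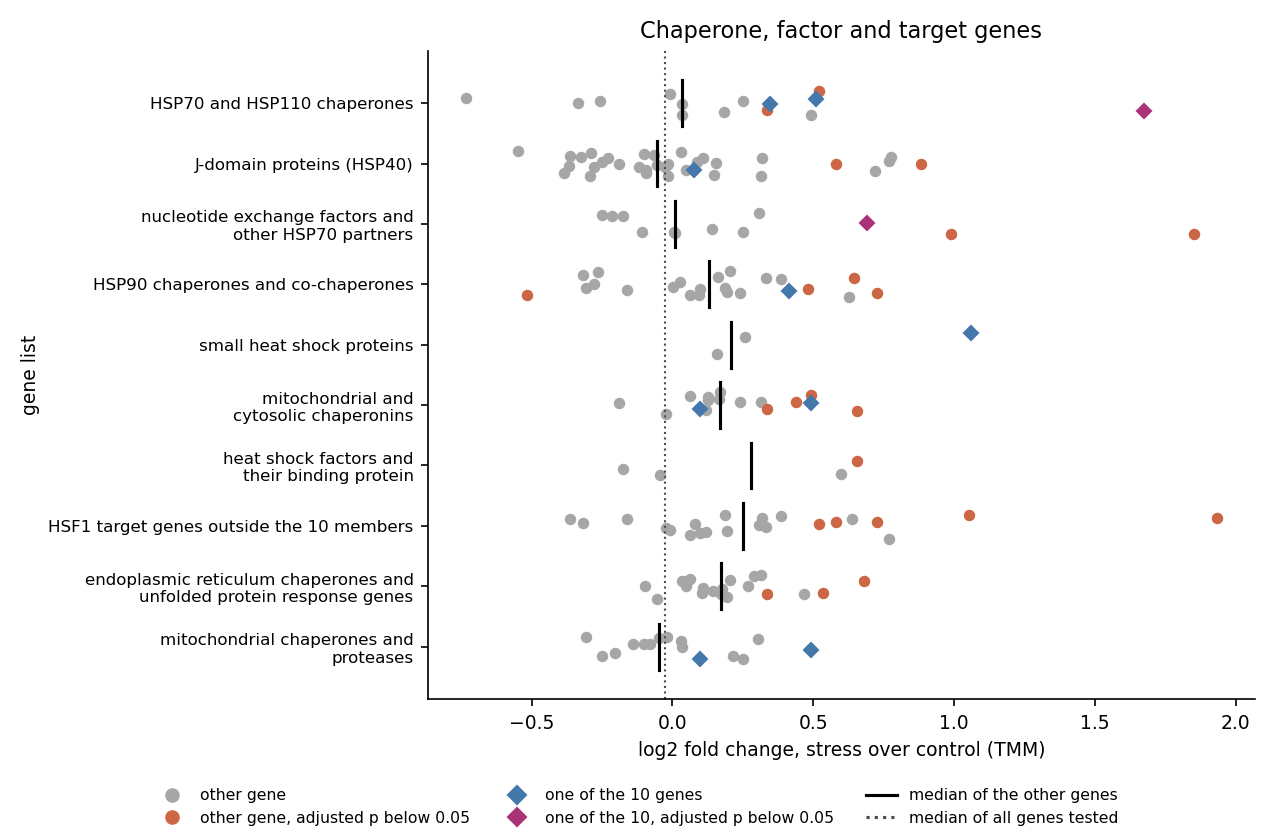
Log2 fold change (stress over control, TMM) of each tested gene in the 10 lists of chaperones, partners, factors and targets (rows; a gene may be in several); orange and purple mark an adjusted p below 0.05, diamonds the 10 genes, black bars the median of the other genes and the dotted line that of all genes tested (-0.03). The medians lie between -0.06 (J-domain proteins) and 0.28 (heat shock factors, 4 genes).

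Whole blood mixes many cell types, and in such bulk samples a higher level cannot be split into more cells of a type and more RNA per cell. Markers of several cell types moved with the groups. Of 14 neutrophil markers 13 were tested, of which 10 were higher and 0 lower, their summed level was 343, 296, 200.02 and 393 CPM in the control samples and 653, 622, 672 and 918 CPM in the stress samples, and Csf3r was the most abundant. Of 10 classical monocyte markers 8 were higher and 0 lower, with sums of 459, 365, 426 and 492 CPM against 1268, 728, 1114 and 1173 CPM and Lyz2 the most abundant. Of 10 platelet markers 10 were higher, with sums of 2051, 1464, 1408 and 2118 CPM against 3256, 3573, 3898 and 3263 CPM and Ppbp the most abundant. Of 10 B cell markers 4 were lower and 0 higher, with sums of 1169, 1421, 1440.4 and 1209 CPM against 1012, 825, 1054 and 1056 CPM and Cd79a the most abundant. Of 10 T cell markers (sums of 552, 522, 557 and 519 CPM against 458, 574, 495 and 480.4 CPM, Tcf7 the most abundant) and 8 NK cell markers (67.9, 75.7, 82.3 and 114 CPM against 68.2, 62.7, 134 and 59.5 CPM, Gzma the most abundant) 0 passed in either direction. Of 14 red cell and reticulocyte markers 1 was higher and 0 lower, with Hbb-bs the most abundant, and no list had a marker at 0 in a whole group. These sums are levels of RNA and not counts of cells. By flow cytometry after acute stress, the paper reported more neutrophils in blood and fewer monocytes, T cells, B cells and NK cells.

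Beside the 10 genes, stress replicate 2 had the lowest sums of neutrophil, classical monocyte and B cell markers in the stress group and the highest sum of T cell markers of the 8 samples. The red cell markers summed to 554016, 408755, 306552 and 673434 CPM in the control samples and 881627, 1013310, 1556320 and 587531 CPM in the stress samples, and the sums can exceed the scale of CPM because TMM sets library sizes by the other genes. What part the mix of cells had in the levels of the 10 genes was not tested.

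**Figure D5:**
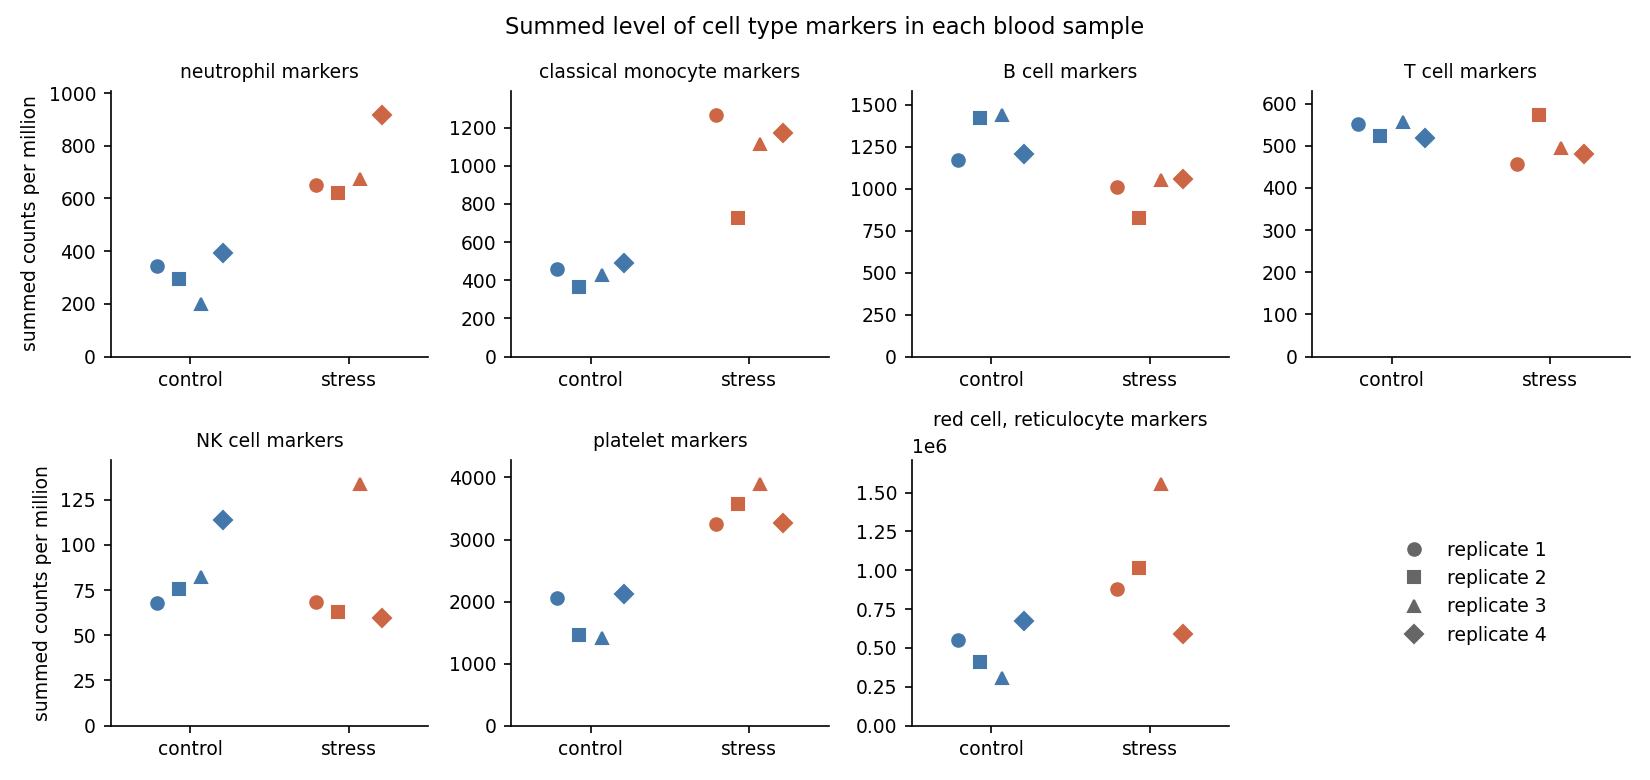
Summed CPM (vertical axes, from 0) of the markers of 7 cell types in the 4 control and 4 stress samples; symbols give the replicate. Neutrophil, classical monocyte and platelet sums are higher in every stress sample than in every control sample, and stress replicate 2 (squares) has the lowest monocyte sum of the stress group (728 CPM).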

How the data were processed

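Peripheral blood RNA was measured in 4 control and 4 stress samples. The counts, raw and given by gene symbol, were deposited by the authors; the submitters' processing notes name HISAT2, featureCounts and the build mm10, while versions, annotation, strand setting and the handling of reads with several matches are not given in the sources used here. The 10 members and all gene lists were chosen with earlier results of these data known. The filter required 10 counts or more in 4 or more samples, and the remaining genes were tested in R 4.3.3 with edgeR 4.0.16 (TMM, robust quasi-likelihood test, Benjamini-Hochberg adjustment over all 11718 genes tested); the script was tested on simulated data. Most genes were named by a fixed rule: the 10 members, Hsf1, Hsf2, Fkbp5, up to 3 genes of smallest p in each direction of a list, the most abundant marker of each cell type, and the 3 genes most correlated with Hspa1b and Hspb1. Other genes that passed in a list (Ubb, Cct8), Dnaja1, Stip1, Hsp90ab1 and the genes most correlated with other members were named after their values were seen. Exon lengths and transcripts came from GENCODE M21, promoter windows from RefSeq (GRCm38.p6). Alternatives were DESeq2 1.42.0, limma-voom (limma 3.58.1), other scalings, filters, the summed Hspa1 copies, a replicate term and leaving out each sample. The mitochondrial share of counts was not analysed here.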

Additional observations from a re-analysis of the deposited data

Results flagged for a closer look

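In each group of 4 samples, the level of each gene named by the fixed rule was checked for a sample far from the other 3, with a test (Dixon's) that picks about 1 in 20 groups by chance. Of 128 groups checked, 6 held such a sample. Among the heat shock genes these were Hsp90aa1, with 96.36 CPM in stress replicate 2 where the other stress samples lay between 57.45 and 59.66 CPM, and Hspb1, with 1.537 CPM in stress replicate 4 where the others lay between 0.1784 and 0.3036 CPM. Among the other chaperone genes, control replicate 4 stood apart for Cct7 (49.17 CPM, the others 37.21 to 38.37), Pfdn5 (37.98 CPM, the others 33.02 to 33.58) and Hspa12a (0.2523 CPM, the others 0.9395 to 0.9783). Control replicate 1 stood apart for Sil1 (2.201 CPM, the others 2.729 to 2.761). The causes were not tested. Without stress replicate 2 the log2 fold change of Hsp90aa1 was 0.22 instead of 0.42, and without stress replicate 4 that of Hspb1 was -0.25 instead of 1.06.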

How the results depend on the processing

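The direction of Hspa1b did not turn in any of its 16 alternatives, but its adjusted p passed 0.05 in 7 of them, and that of Bag3 in 11 of 17. The count of members called up (0) was 1 with DESeq2 and 0 to 1 with a sample left out. The count of members higher at an adjusted p below 0.05 (2) was 1 with limma-voom, 0 on total counts alone, 1 with at least 10 counts in every sample (where Hspa1b was not tested), 1 with the Hspa1 copies summed and 0 to 3 with a sample left out.

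On total counts alone the log2 fold changes were -0.0712 (Bag3), -0.31 (Hsph1), -0.38 (Hsp90aa1), -0.39 (Hspe1), -0.48 (Hspa8), -0.69 (Hspd1) and -0.73 (Dnajb1). With a sample left out that of Dnajb1 ranged from -0.15 to 0.21 and that of Hspb1 from -0.25 to 1.39. Over all genes tested, 198 were called up (332 with DESeq2, 14 on total counts, 76 to 340 with a sample left out) and 2 down (12 with DESeq2, 728 on total counts, 4 with no filter, 1 to 8 with a sample left out). At an adjusted p below 0.05, 1222 were higher (52 on total counts, 617 to 1425 with a sample left out) and 432 lower (655 with DESeq2, 5811 on total counts, 81 to 726 with a sample left out). Of the other chaperone, factor and target genes, 18 were higher (0 on total counts, 4 to 18 with a sample left out) and 1 lower (49 on total counts, 0 to 3 with a sample left out). Fewer samples and, on total counts, a shifted zero point are part of these alternatives, and the causes beyond that were not tested.

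The labels number the replicates 1 to 4 in both groups, and samples of the same number did not deviate together (correlations 0.0540, -0.0105, -0.0394 and -0.145). With the number as a replicate block, 0 members were higher at an adjusted p below 0.05, 1 gene was called down, 240 genes were lower, and 8 of the other chaperone, factor and target genes were higher and 0 lower. Among the 10 genes depth limits Hspa1a, Hspa1b and Hspb1 most, with counts of 0 to 48 a sample. Of the other genes that passed, Bag2 (3 to 26 counts) and Chac1 (10 to 34 counts) were low as well.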

Other observations

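The likeness of the other genes to each member was ranked over the 8 samples among 11717 genes, for members outside the fixed rule after the values were seen. Bag3 was most like Vcl (r = 0.980), Laptm5 (r = 0.977) and Capn2 (r = 0.977), and its correlation with the other members tested was at most 0.644 (Hspa1b). Hspe1 was most like BC005624 (r = 0.983), Comtd1 (r = 0.980) and Mif (r = 0.979). Hspd1 was most like Lig4 (r = 0.971), Chordc1 (r = 0.947), a co-chaperone of HSP90, and Rab7 (r = 0.940). Hsp90aa1 was most like Hsp90ab1 (r = 0.955), its constitutive relative, Tmem33 (r = 0.942) and Eif4g2 (r = 0.9375). Hspa1l, the third HSP70 gene of the chromosome 17 cluster, had 27, 43, 73 and 9 counts in the control samples and 14, 12, 6 and 21 in the stress samples, and its log2 fold change of -0.34 ± 0.41 (SE) did not pass (edgeR's quasi-likelihood test, Benjamini-Hochberg adjusted p = 0.618).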
